A study of Mus musculus with 2 samples.

Results

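Limb bud and body wall mesenchyme was examined by single-cell RNA sequencing of mouse embryos, taken whole at embryonic day 9.5. These cells were picked by their transcripts. A barcode with 200 to 6000 detected genes was taken as a member when it held at least 1 unique molecular identifier (UMI, which marks 1 captured transcript) of Prrx1 and at least 1 UMI of at least 2 of the supporting genes Fgf10, Tbx5, Tbx4, Hoxd9, Hoxd10, Hoxa9, Hoxa10 and Hgf. It was dropped when it held any UMI of Dlx1, Dlx2, Alx1, Foxf1 or Myh6, which mark craniofacial or splanchnic mesoderm and heart muscle. The rule found 289 members among 28179 barcodes, 123 of 15161 in the wild-type library and 166 of 13018 in the Usb1-null library.

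One library came from wild-type embryos and the other from embryos with a germline Usb1 knockout, made by CRISPR deletion of exons 1 and 2. Usb1 is an exonuclease that shortens the U6 small nuclear RNA at its 3′ end. Neither a strain nor the number of embryos per library is given in the sources used here, and the deletion is carried by every cell of the embryo rather than by the limb alone. With 1 library per genotype, no difference below has a replicate check and no test was made, so each comparison is between these libraries and not between genotypes. Intervals in parentheses are 95% intervals that cover counting error only.

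Limb buds form as outgrowths of lateral plate mesoderm beneath the ectoderm of the flank. Tbx5 starts the forelimb and Tbx4 the hindlimb, Fgf10 from the mesenchyme induces and maintains the ectodermal ridge at the tip, and Hoxa and Hoxd genes set position along the body and the limb. The forelimb bud is ahead of the hindlimb bud at this stage, and Lmx1b marks dorsal limb mesenchyme.

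The libraries differed in depth and in sex. The wild-type library held 21751961 UMIs and the Usb1-null library 33775852. Members had a median of 1872 UMIs (668 to 11767) in the wild-type and 3100 (1226 to 13916) in the Usb1-null library, against 1239.5 and 2289 in all other barcodes. Members of the wild-type library held 726 Xist UMIs and none of Uty, Ddx3y, Eif2s3y or Kdm5d, whereas Usb1-null members held no Xist UMI and 278 of Uty, so sex and genotype cannot be told apart. Usb1 itself gave 0 UMIs in wild-type and 1 in Usb1-null members, too few to check the labels, and an assay of 3′ ends need not read the deleted exons. The libraries shared 61 barcode sequences, none of them among members. A doublet caller marked 9 wild-type members (7.32%) and 12 Usb1-null members (7.23%), compared with 6.54% and 5.06% of the libraries.

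Levels are given as CPM, the UMIs of a gene scaled to an equal total for each summed population. Members carried the limb genes that the rule required in single UMIs and several that it did not read. Prrx1, a homeobox factor of limb and lateral plate mesenchyme, stood at 1130 CPM (1010–1260) in wild-type members and at 640 CPM (579–706) in Usb1-null members, against 141 and 113 CPM in all other barcodes. Exactly 1 Prrx1 UMI was found in 44 wild-type (35.8%) and 69 Usb1-null members (41.6%). In globin-rich barcodes, which should not express the gene, 4.12% of 97 wild-type barcodes (median 1171 UMIs) and 10.2% of 49 Usb1-null barcodes (median 2726 UMIs) held a Prrx1 UMI, against 12.4% and 15.1% of all other barcodes. Prrx1 UMIs thus also occurred in barcodes that should lack the gene. The 7 given markers of these cells summed to 2390 CPM in wild-type members, and to 1470 CPM in Usb1-null members, 10.5-fold (9.64–11.4) and 7.05-fold (6.57–7.55) over other barcodes, in part because the rule asks for them.

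Fgf10 and Tbx5 made up most of the support. Fgf10 was detected in 100 wild-type (81.3%) and 128 Usb1-null members (77.1%), in 6.19% and 4.08% of globin-rich barcodes, and in 5.03% and 7.95% of all other barcodes. Tbx5 was detected in 58 (47.2%) and 94 members (56.6%), against 1.03% and 2.04% of globin-rich barcodes. Hgf, the factor that draws muscle precursors into the limb, was detected in 53 (43.1%) and 60 members (36.1%) against 1.54% and 2.51% of all other barcodes. Hoxa9 was found in 44 (35.8%) and 66 members (39.8%), and Hoxd9 in 26 (21.1%) and 14 (8.43%). The commonest pairs were Fgf10 with Hgf in the wild-type library (45 members) and Fgf10 with Tbx5 in the Usb1-null library (69 members).

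The hindlimb end of the list was close to empty. Tbx4 gave 0 UMIs in wild-type and 1 UMI in Usb1-null members, out of 6 and 12 UMIs in the libraries. Hoxd10 gave 3 UMIs in the members of each library, Hoxa10 gave 2 and 5, Hoxc10 gave 0 and 1, and Hoxa11 gave none. Pitx1, a hindlimb factor, gave 8 and 19 UMIs, and Shh, the signal of the posterior limb margin, gave 1 and 3. A count of 0 among the members allows up to 2.95% of wild-type members to hold a Tbx4 UMI, which limits cells with a UMI and not cells that express the gene. No member held Tbx4 without Tbx5, so members could not be divided into Tbx5 and Tbx4 classes. Pitx1 UMIs lay mostly in members without Tbx5, as described with the Tbx5 comparison.

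Genes outside the rule marked the same cells in both libraries. Ranked by the smaller of the log2 ratios in the libraries, the first was Rspo2, a secreted activator of Wnt signalling that acts in the limb, with 223 CPM in wild-type members and 152 CPM in Usb1-null members against 39.8 and 27.2 CPM in all other barcodes. Gm14226 came next, and then Lix1 at 399 CPM in wild-type members against 81.4 CPM. Epha3, a guidance receptor, was at 333 CPM against 63.1 CPM. Sema3a, a secreted repellent of axons, reached 2220 CPM against 377 CPM, and Bmp4 128 CPM against 31.8 CPM. Tbx3, a T-box factor of the limb margins, gave 102 CPM (68.1–148) in wild-type members and 120 CPM (94.4–150) in Usb1-null members, against 30.2 and 29.5 CPM. Among 3620 genes, rule genes included, 45 were more than 2-fold higher in members in both libraries (1.24%) and 12 more than 2-fold lower (0.331%). The rule genes Prrx1, Hgf, Tbx5, Hoxa9 and Fgf10 are among the 45. Since these cells were chosen by transcripts, those counts describe them and test nothing.

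The plot of leading genes shows their sizes in both libraries. A shared direction was a condition for being drawn.

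**Figure D1:**
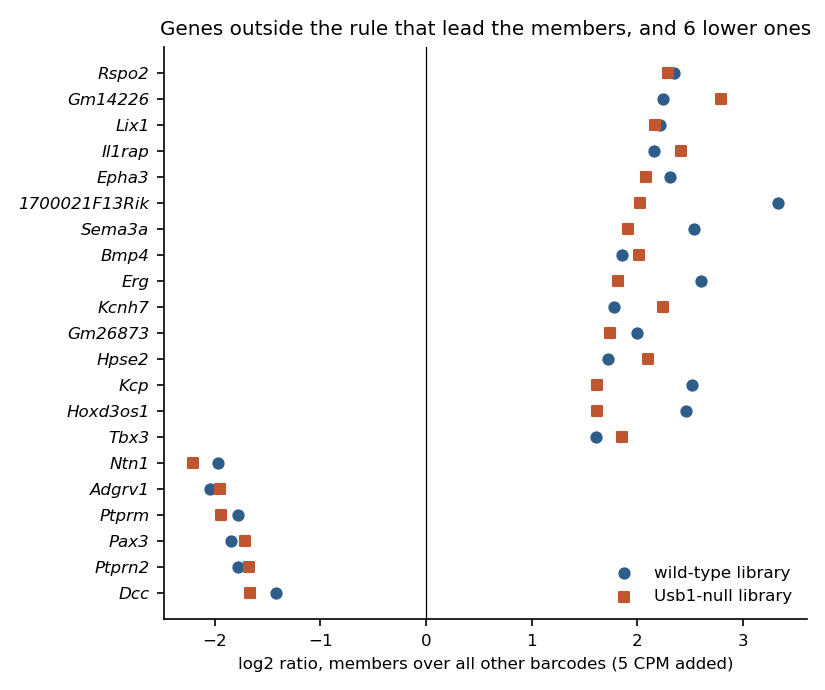
Log2 ratio of members over all other barcodes (x axis, 5 CPM added to each value) for the 15 leading genes outside the rule and for 6 lower genes, in the wild-type (circles) and Usb1-null (squares) libraries. Rspo2 lies at 2.35 and 2.29, and the 6 lower genes lie below 0 in both libraries.

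Markers of several other cell types were scarce in the members. The endothelial list was at 0.183-fold (0.107–0.293) of its level in other barcodes in the wild-type and 0.255-fold (0.19–0.336) in the Usb1-null library. The neural progenitor list was at 0.155-fold and 0.21-fold with Sox3 at 0, and the cardiomyocyte list at 0.252-fold and 0.231-fold with Nkx2-5 at 0. The list for somites and muscle precursors was at 0.255-fold and 0.303-fold, with Myf5, Myod1 and Lbx1 at 0 in both libraries. Splanchnic mesoderm was close to the level of other barcodes, at 1.37-fold (0.679–2.46) and 1.36-fold (0.827–2.12). The primitive erythroid list was at 0.848-fold (0.733–0.976) and 0.422-fold (0.318–0.548), where 1 wild-type member held 100 of the 196 wild-type UMIs as Hbb-y. Of the remaining lists, the liver list was at 1.29-fold (0.587–2.47) and 0.373-fold (0.236–0.56) and the leukocyte list gave 2 and 1 UMIs. The limb list that the rule did not read (19 genes) was higher than in other barcodes by 1.44-fold (1.37–1.52) and 1.33-fold (1.28–1.37), with Shox2 at 0 in both libraries and Lhx2 and Lhx9 at 0 in the Usb1-null library.

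Markers of intermediate mesoderm, the source of the kidney, differed between the libraries. The 5 markers together gave 8 UMIs (29.3 CPM) in wild-type members and 98 UMIs (157 CPM) in Usb1-null members, a ratio of 5.36 (2.62–12.8). Relative to other barcodes the list was at 0.386-fold (0.166–0.763) in the wild-type and 1.59-fold (1.28–1.94) in the Usb1-null library. Lhx1, a LIM homeobox factor, gave 2 UMIs in 2 wild-type members and 30 UMIs in 29 Usb1-null members. Pax2, a paired-box factor needed for the kidney, gave 3 UMIs in 2 members and 26 UMIs in 10 members. Pax8 gave 1 and 19 UMIs, Wt1 2 and 18, and Osr1 0 and 5.

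In all, 7 wild-type members and 53 Usb1-null members held at least 1 of these UMIs, and 10 Usb1-null members held 2 or more of the genes. They were deeper than the other members, with medians of 3341 and 4267 UMIs, and 2 and 7 of them were called doublets. When each member was thinned at random to 1000 UMIs, 3 of 115 wild-type members (2.61%) and 23 of 166 Usb1-null members (13.9%) still held a marker, against 5.31% and 6.6% of other barcodes thinned alike. Of the 53 Usb1-null members, 31 held Tbx5 and 22 held Hoxa9. Prrx1 barcodes with 1 supporting gene, which fall just short of the rule, were at 76.7 CPM for this list in the wild-type and 167 CPM in the Usb1-null library. The part of these cells in the results below was measured by leaving them out.

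The share of members was higher in the Usb1-null library at full depth and lower once depth was made equal. At full depth it was 0.811% (0.675–0.967) in the wild-type and 1.28% (1.09–1.48) in the Usb1-null library, a ratio of 1.57 (1.24–2.0). A rule that asks for single UMIs of 3 genes is met more often in deeper barcodes. After each barcode was thinned to 1000 UMIs, with 4973 wild-type and 612 Usb1-null barcodes left out as too shallow, the shares were 0.422% (0.306–0.568) and 0.202% (0.13–0.297), a ratio of 0.477 (0.279–0.8). Over 20 random draws at each of 5 depths, added after the data were seen, the median ratio was 0.457 at 500 UMIs, 0.414 at 750, 0.471 at 1000, 0.578 at 1500 and 0.696 at 2000. Between the draws it ran from 0.146 to 1.66 at 500 UMIs, on medians of 15 and 6 members, and from 0.567 to 0.892 at 2000. When only the Usb1-null library was thinned, to the median depth of the wild-type library, 80 members remained (0.615%) and the ratio was 0.757 (0.564–1.01). Over 20 such draws it ran from 0.568 to 0.767, with a median of 0.705, so this draw lies near the top.

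**Figure D2:**
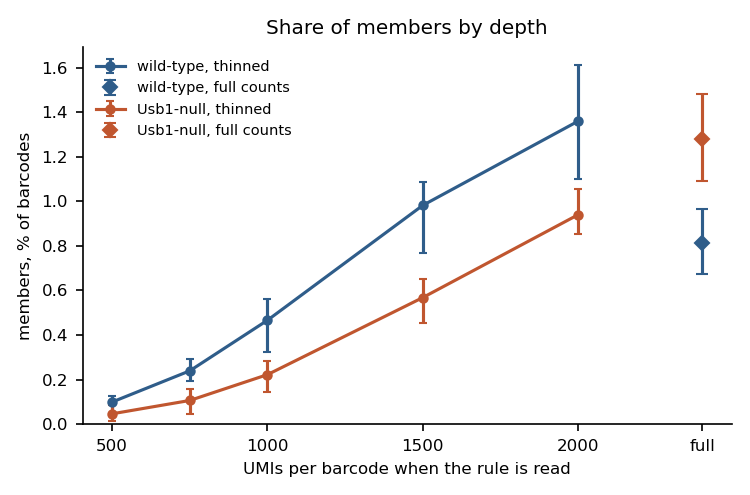
Members as a percentage of barcodes (y axis) by the number of UMIs per barcode at which the rule was read (x axis), in the wild-type (blue) and Usb1-null (orange) libraries. Circles are medians of 20 draws with bars from the lowest to the highest draw, and diamonds are full counts with 95% counting intervals; at full counts the order of the libraries is the opposite of that of the medians at each thinned depth.

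The steps of the rule show where the libraries parted. A Prrx1 UMI was present in 1988 wild-type (13.1%) and 2109 Usb1-null barcodes (16.2%), and 146 and 241 of these held 2 or more supporting genes. The genes for dropping then removed 23 (15.8%) and 75 (31.1%), mostly through Alx1 (19 and 54) and Myh6 (5 and 25). Just outside the rule, with 1 supporting gene, were 292 and 328 barcodes, with Prrx1 at 948 and 624 CPM. Just inside it, with 2, were 92 and 129 barcodes, with Prrx1 at 1010 and 665 CPM.

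Levels of the rule genes summed over whole libraries do not pass through the rule. Prrx1 was lower in the Usb1-null library (123 against 153 CPM, ratio 0.8, 0.764–0.837), and so were Hoxd9 (2.73 against 3.91 CPM, 0.697, 0.513–0.948) and Hoxa9 (32.4 against 38 CPM, 0.852, 0.778–0.934). Tbx5 was higher (32.3 against 23.6 CPM, 1.37, 1.23–1.52), and it is also expressed in the heart. The cardiomyocyte list was lower in Usb1-null barcodes other than members, at 118 against 261 CPM. The source of the Tbx5 difference was not tested. Fgf10 was at 59.6 against 57.2 CPM (1.04, 0.971–1.12) and Hgf at 14.6 against 16.3 CPM (0.894, 0.778–1.03). Within members the ratios of these genes were lower, 0.566 (0.487–0.659) for Prrx1, 0.718 (0.591–0.874) for Fgf10 and 0.552 (0.394–0.776) for Hgf. At matched depth the ratios were 0.709 (0.58–0.864), 0.873 (0.677–1.12) and 0.865 (0.566–1.31), while that of Hoxd9 was 0.219 (0.106–0.43) at full depth and 0.103 (0.0119–0.408) at matched depth, on 2 Usb1-null UMIs.

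The Usb1-null and wild-type members were then compared gene by gene, on summed UMIs (624692 and 273301 in all). Among 4430 genes with at least 50 UMIs, 86 were more than 2-fold higher in Usb1-null members (1.94%) and 38 more than 2-fold lower (0.858%), and the median log2 ratio was 0.01. Xist and Y-linked genes, which differ with the sex of the libraries, are included in the counts. These counts changed with depth and with the members it leaves. With the Usb1-null library thinned to the median depth of the wild-type library (80 members, 189629 UMIs) 28 were higher and 37 lower of 2439 genes. With members chosen after thinning to 1000 UMIs they were 11 and 16 of 477 genes. In all other barcodes, the figures were 58 (0.347%) and 38 (0.227%) of 16719 genes. Among 7631 genes with at least 20 UMIs, 451 were higher (5.91%) and 501 lower (6.57%) with a counting interval that excluded a ratio of 1, here called beyond counting. For the same genes the shares were 7.3% and 9.44% in Prrx1 barcodes with 1 supporting gene and 31.1% and 37.4% in all other barcodes, whose sums are larger. Such an interval treats each UMI as independent, and UMIs of 1 cell are not. The genes with the 10 highest and 10 lowest log2 ratios, named here, were chosen by this comparison, so their values describe it.

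**Figure D3:**
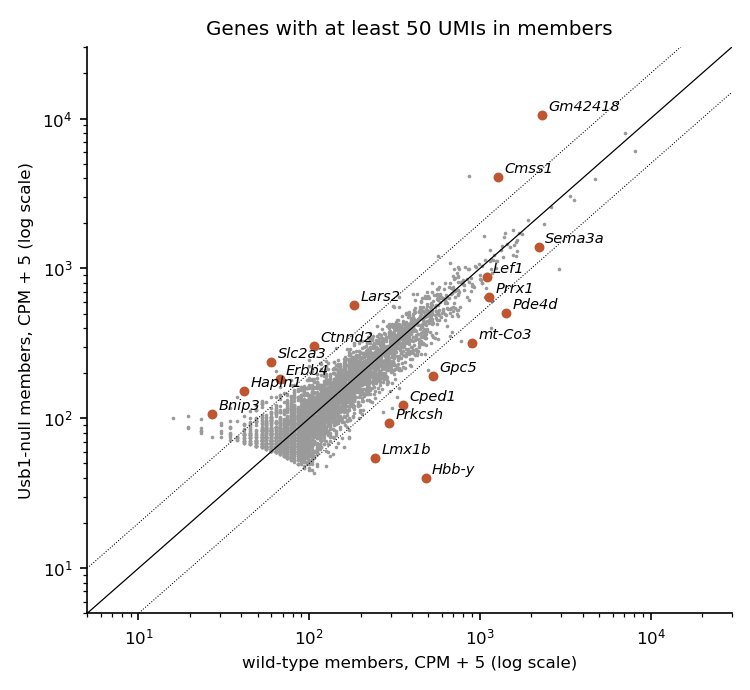
Level of each gene with at least 50 UMIs in wild-type members (x axis) and Usb1-null members (y axis), as CPM with 5 added on log scales, without the sex-linked genes. The solid line is equality and the dotted lines are 2-fold differences; Slc2a3, Hapln1 and Ctnnd2 lie above the upper line, and Lmx1b, Prkcsh, Cped1, Gpc5 and Pde4d below the lower one.

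Several of the most different genes moved alike in all other barcodes. Gm42418 and AY036118, which overlap each other on opposite strands at a ribosomal RNA locus and cannot be separated with certainty, took 0.318% of UMIs in wild-type and 1.47% in Usb1-null members (ratio 4.64), and the ratio was 4.81 in other barcodes. Cmss1 was 3.19-fold (2.85–3.58) higher in members and 3.19-fold in others, and Lars2, a mitochondrial leucyl-tRNA synthetase, 3.15-fold (2.33–4.34) and 4.18-fold. Rec114 was at 3.45-fold and 2.7-fold. Transcripts of the mitochondrial genome were lower in members, at 0.183% against 0.457% of UMIs (ratio 0.4, 0.369–0.433), as in others (0.439). Ribosomal protein transcripts were at 1.76% against 2.35% (0.746, 0.724–0.77), with 38 of 76 genes lower beyond counting (6.57% over all genes). In other barcodes the ratio of this class was 0.704, with 73 of 76 genes lower. The embryonic globin Hbb-y was at 22 against 130 UMIs (0.074, 0.0448–0.117). A single wild-type member held 100 of the 130, and without the richest member of each library the ratio was 0.27.

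Slc2a3, Hapln1 and Ctnnd2 were higher in Usb1-null members by more than in other barcodes. Slc2a3 (chr6:122727809-122801640, minus strand), a high-affinity glucose transporter, gave 15 UMIs in 12 wild-type members and 144 UMIs in 78 Usb1-null members. That is 54.9 against 231 CPM, a ratio of 4.2 (2.46–7.7), while other barcodes were at 1.66 (1.61–1.72). Hapln1, which links hyaluronan to proteoglycans, gave 10 UMIs in 6 and 92 UMIs in 48 members, a ratio of 4.02 (2.09–8.67) against 1.08 (1.04–1.12) in others. Ctnnd2, a catenin known from neurons, gave 28 UMIs in 20 and 187 UMIs in 76 members, a ratio of 2.92 (1.96–4.52) against 0.865 (0.84–0.89). Prrx1 barcodes with 1 supporting gene were nearer to the others, at 1.91, 1.37 and 1.22 for these genes. All other barcodes were at 221 (wild-type) and 367 CPM (Usb1-null) for Slc2a3, 210 and 227 for Hapln1, and 386 and 333 for Ctnnd2. Members of both libraries were below these levels, with Hapln1 at 36.6 and 147 CPM and Ctnnd2 at 102 and 299. The large ratios thus go with low levels in wild-type members, on few UMIs.

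At matched depth, the ratios were 4.42 (2.42–8.52) for Slc2a3, 5.04 (2.44–11.4) for Hapln1 and 2.73 (1.69–4.48) for Ctnnd2. Erbb4, a receptor for neuregulins, was at 178 against 62.2 CPM (2.86), but 1 Usb1-null member held 36.9% of its UMIs. Without the richest member of each library its ratio was 2.12. Its log2 ratio of 1.44 became 0.48 without members that held intermediate mesoderm UMIs, and -0.96, the opposite direction, with members chosen after thinning to 1000 UMIs. It was 4.61 with 3 supporting genes, and at matched depth the ratio was 3.9 (2.19–7.26). Col4a6, a basement membrane collagen on the X chromosome, was at 171 against 65.9 CPM (2.6, 1.57–4.55), and at 1.16 in others.

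Cped1, Pde4d, Gpc5 and Prkcsh were lower in Usb1-null members. Pde4d, a phosphodiesterase of cyclic AMP, was at 499 against 1420 CPM (0.353, 0.303–0.41) and at 0.902 in others. Gpc5, a glypican of the cell surface, was at 187 against 527 CPM (0.355, 0.276–0.457) and at 0.842. Cped1 was at 118 against 348 CPM (0.341, 0.248–0.467) and at 0.93, and Prkcsh, the beta subunit of glucosidase II, at 88 against 289 CPM (0.305, 0.212–0.435) and at 0.567. The largest share held by 1 member was 9.46%, for Cped1. In Prrx1 barcodes with 1 supporting gene the ratio was 1.05 (0.873–1.27) for Cped1, 0.793 (0.699–0.901) for Pde4d, 0.533 (0.425–0.668) for Gpc5 and 0.592 (0.457–0.766) for Prkcsh.

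Among transcription factors of the limb, Lmx1b was the most different. Of 30 listed factors 21 had 20 UMIs or more, 0 were higher and 4 lower beyond counting (5.91% and 6.57% over all genes), and the median log2 ratio was 0.05 (-0.03 in others). Lmx1b (chr2:33560965-33640511, minus strand), which specifies dorsal limb, gave 65 UMIs in 40 wild-type members (32.5%) and 31 UMIs in 19 Usb1-null members (11.4%). The level was 238 against 49.6 CPM, a ratio of 0.209 (0.131–0.325), compared with 0.311 (0.188–0.505) in Prrx1 barcodes with 1 supporting gene and 0.924 (0.842–1.01) in all others. At 1000 UMIs per member 21.7% and 5.42% held Lmx1b, and the ratio at matched depth was 0.333 (0.176–0.59). In wild-type members Lmx1b was 6.5-fold (4.97–8.38) over other barcodes, and in Usb1-null members 1.47-fold (0.993–2.1).

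The other limb factors differed less. Mecom was at 522 against 728 CPM (0.717, 0.599–0.859), and Gli3, which antagonises Hedgehog signalling, at 754 against 893 CPM (0.845, 0.722–0.99). At matched depth Mecom was at 0.826 (0.65–1.04) and Gli3 at 0.927 (0.754–1.14), and both intervals included 1. Meis1 and Meis2, the proximal limb factors, were at 1150 and 2580 CPM in Usb1-null and 1150 and 2600 CPM in wild-type members. Msx1 was at 83.2 against 121 CPM (0.689, 0.437–1.1) and Hand2 at 25.6 against 22 CPM (1.17, 0.434–3.64). Lhx9, a LIM factor of the distal limb, gave 8 UMIs in 8 wild-type members and 0 UMIs in Usb1-null members, too few for a firm statement.

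Most counted Hox genes were within counting. Of 39 listed genes 20 had enough UMIs, 0 were higher and 3 lower beyond counting (5.91% and 6.57% over all genes), and the median log2 ratio was -0.10 (0.08 in others). Hoxd8 gave 16 UMIs in 16 wild-type members and 7 UMIs in 7 Usb1-null members, a ratio of 0.191 (0.0666–0.492) compared with 0.922 in others. Hoxd9, a gene of the rule, gave 28 and 14 UMIs (0.219, 0.106–0.43), with 0.885 in others. Hoxd4 was at 109 against 165 CPM (0.661, 0.447–0.986), with 0.767 in others, and at matched depth at 0.705 with an interval that included 1 (0.403–1.2). It overlaps Hoxd3 on the same strand, so reads of the pair may be split between them. Hoxd3 was at 231 against 165 CPM (1.4, 0.995–2.0), and Hoxa9 was at 171 against 220 CPM (0.78, 0.564–1.09). Thinned to wild-type depth, Usb1-null members held 2 UMIs each of Hoxd8 and Hoxd9.

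In the lists of limb signalling pathways, counts beyond counting are to be read against 5.91% higher and 6.57% lower over all genes. In the FGF list 0 were higher and 1 lower of 12 genes (Fgf10, a gene of the rule), with the receptors Fgfr2 and Fgfr1 at 0.964 (0.814–1.14) and 0.81 (0.606–1.09). In the BMP list 1 was higher and 1 lower of 17, with a median of -0.24 (0.02 in others). Bambi, a pseudoreceptor that dampens BMP signalling, was at 75.2 against 29.3 CPM (2.57, 1.2–6.3), and Smad7, an inhibitor, at 152 against 216 CPM (0.704, 0.504–0.992). At matched depth Bambi was at 1.98 (0.726–5.68) and Smad7 at 0.757 (0.474–1.19), and both intervals included 1. The ligand Bmp4 was at 106 against 128 CPM (0.825, 0.54–1.28). In the Hedgehog list only Gli3 of 10 genes was beyond counting, and the target Ptch1 was at 240 against 194 CPM (1.24, 0.9–1.73).

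In the Wnt list 0 were higher and 2 lower of 24, namely the receptor Ror1 at 698 against 885 CPM (0.788, 0.672–0.926) and the nuclear effector Lef1 at 869 against 1090 CPM (0.797, 0.691–0.921). At matched depth Ror1 was at 0.947 (0.77–1.16). Lef1 was at 0.818 (0.715–0.937) in Prrx1 barcodes with 1 supporting gene and at 1.05 in all others, and with members chosen after thinning to 1000 UMIs its log2 ratio was 0.55, the opposite direction. In the retinoic acid list Aldh1a2, the synthesising enzyme, was lower at 28.8 against 84.2 CPM (0.342, 0.174–0.663), with 0.993 in others. One wild-type member held 47.8% of its UMIs there, and without the richest member of each library the ratio was 0.583, with an interval of 0.259–1.35. In the list for guidance of muscle precursors only Hgf was lower, of 4 genes; it is a gene of the rule, and at matched depth its interval included 1. The matrix list had 1 gene higher (Hapln1) and 3 lower of 23, against the same shares over all genes, namely Mfap4 (0.219, 0.109–0.42), Col26a1 (0.707) and Fbn2 (0.737). None of 5 genes of cartilage differentiation was beyond counting, with Sox9 at 4 UMIs in wild-type and 21 in Usb1-null members (2.3, 0.775–9.2).

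In the list for the response to low oxygen, 7 genes were higher in Usb1-null members, and most were within counting. Hypoxia-inducible factors bind a short core motif in the DNA near their targets and induce glucose uptake, glycolysis and mitophagy genes. Of 22 counted genes in this list 7 were higher and 1 lower beyond counting, against 5.91% and 6.57% of all genes. In Prrx1 barcodes with 1 supporting gene 7 of the 22 were also higher and 1 lower, against 7.3% and 9.44% of all genes. In all other barcodes 14 were higher and 3 lower, against 31.1% and 37.4%. The median log2 ratio was 0.40, against -0.0 over the 7631 genes with at least 20 UMIs and 0.36 for the same list in other barcodes. Bnip3, which targets mitochondria for removal, gave 6 UMIs in wild-type and 64 in Usb1-null members (4.67, 2.03–13.2; 2.47 in others). Pfkfb3, a regulator of glycolysis, gave 5 and 38 UMIs (3.32, 1.31–10.8; 2.12), and Ero1l, an oxidase of the endoplasmic reticulum, 16 and 84 UMIs (2.3, 1.34–4.2; 1.65). Fam162a was at 1.73, Hk2, the first enzyme of glycolysis, at 1.52, the histone demethylase Kdm3a at 1.5 and the collagen prolyl hydroxylase P4ha1 at 1.47.

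The members of that list were not uniform. Eno1, a glycolytic enzyme, was lower at 221 against 384 CPM (0.575, 0.443–0.748), and Ldha was at 1.02 (0.787–1.34). Vegfa, the main angiogenic ligand, was at 115 against 113 CPM in members (1.02, 0.658–1.6), while it was at 1.9 in all other barcodes and at 3.66 in Prrx1 barcodes with 1 supporting gene. At matched depth the ratio was 5.28 (2.08–15.9) for Bnip3, 4.04 (1.37–14.3) for Pfkfb3 and 1.62 (0.78–3.4) for Ero1l. Fam162a was at 1.44 there (0.889–2.34), Hk2 at 1.42 (0.983–2.05), Kdm3a at 1.34 (0.843–2.12) and P4ha1 at 1.39 (0.998–1.92). These intervals and that of Ero1l included 1, on fewer UMIs, so 2 of the 7 genes remained beyond counting at that depth.

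**Figure D4:**
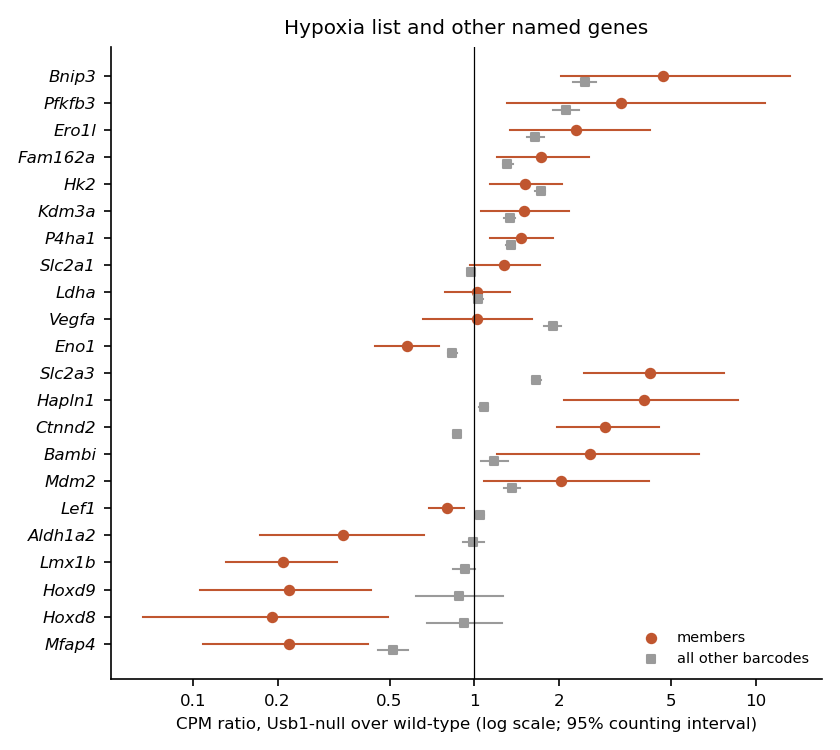
CPM ratio of Usb1-null over wild-type (x axis, log scale) for genes of the hypoxia list and other named genes, in members (circles) and in all other barcodes (squares). Lines are 95% counting intervals; Slc2a3 at 4.2 against 1.66 and Lmx1b at 0.209 against 0.924 are apart in the 2 populations, and Vegfa at 1.02 lies below its value in others.

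The promoters of the 3 genes of this list with the highest ratios are shown because each holds ACGTG, the core that hypoxia-inducible factors recognise. Each window runs from 250 bases before to 50 bases after a gene's start in RefSeq (GRCm38.p6), read on the gene's strand, and capitals mark ACGTG on either strand. Windows are chr7:138909457-138909756 for Bnip3, chr2:11553880-11554179 for Pfkfb3 (the first of its windows in the table) and chr14:45318523-45318822 for Ero1l (Ero1a in RefSeq), all on the minus strand.
Bnip3: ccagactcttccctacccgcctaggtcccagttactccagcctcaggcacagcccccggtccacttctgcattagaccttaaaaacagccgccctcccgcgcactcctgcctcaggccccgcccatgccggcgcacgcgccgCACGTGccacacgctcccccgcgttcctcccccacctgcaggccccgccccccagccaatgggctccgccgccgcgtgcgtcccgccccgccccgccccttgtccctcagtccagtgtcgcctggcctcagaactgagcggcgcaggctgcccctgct
Pfkfb3: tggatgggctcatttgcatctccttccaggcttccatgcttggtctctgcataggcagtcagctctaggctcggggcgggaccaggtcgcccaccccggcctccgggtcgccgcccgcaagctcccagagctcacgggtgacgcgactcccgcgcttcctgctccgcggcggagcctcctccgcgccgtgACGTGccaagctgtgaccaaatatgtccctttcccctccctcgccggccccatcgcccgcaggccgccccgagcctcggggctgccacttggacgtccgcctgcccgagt
Ero1l: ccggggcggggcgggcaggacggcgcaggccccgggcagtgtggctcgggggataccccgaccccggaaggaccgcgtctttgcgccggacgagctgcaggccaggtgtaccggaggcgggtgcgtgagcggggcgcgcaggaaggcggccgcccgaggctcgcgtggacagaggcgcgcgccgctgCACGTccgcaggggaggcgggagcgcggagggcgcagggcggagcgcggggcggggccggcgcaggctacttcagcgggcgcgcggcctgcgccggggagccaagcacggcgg

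The match starts 108 bases before the start of Bnip3, where the palindrome CACGTG is read on both strands, 60 bases before that of Pfkfb3 and 63 before that of Ero1l. Of the 7 listed genes that were higher in members, 6 held ACGTG in at least 1 window. Of the other 13 counted genes of the list with a window, 9 held it, against 21.8% of the 27025 genes in the table. The letters are a description of these windows, and binding was not measured.

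**Figure D5:**
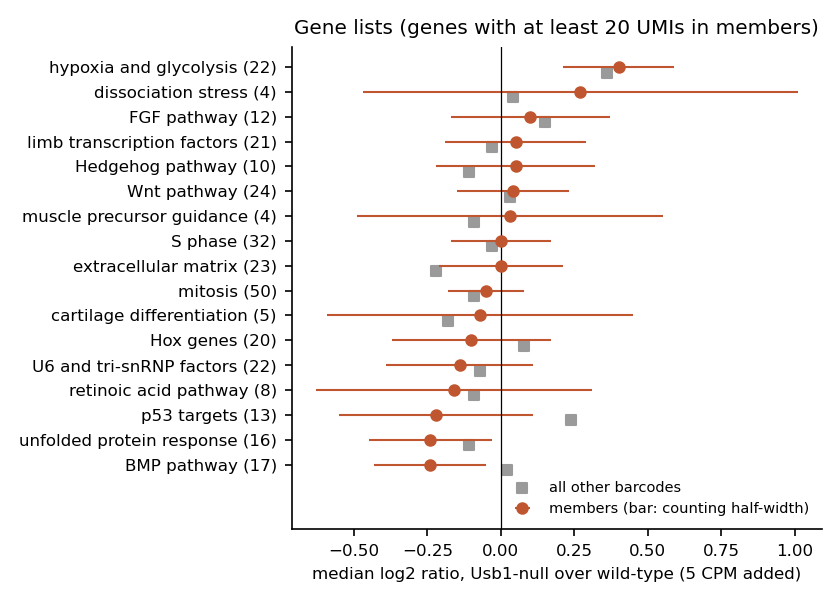
Median log2 ratio of Usb1-null over wild-type (x axis, 5 CPM added) for 17 gene lists, in members (circles, with the counting half-width of the median) and in all other barcodes (squares). The number of genes counted stands beside each list. The hypoxia list lies at 0.40 in members and 0.36 in others. The p53 list lies at -0.22 in members, with a counting half-width of 0.33 that reaches past 0, and at 0.24 in others.

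Members with and without a Tbx5 UMI were compared within each library as a description, a comparison added after the hindlimb class was found empty. Tbx5 is a gene of the rule, and members without it passed through the other supporting genes, so the rule sets part of this contrast. A Tbx5 UMI without Tbx4 was found in 58 wild-type (47.2%, 38.1–56.4) and 93 Usb1-null members (56%, 48.1–63.7). After thinning to 1000 UMIs it was found in 24.3% and 21.7%. Of 3614 genes, 20 were higher (0.553%) and 15 lower (0.415%) with Tbx5 beyond counting in both libraries, and 4 were beyond counting in opposite directions (0.111%). In the wild-type library alone 2.66% were higher and 2.38% lower, and in the Usb1-null library 4.95% and 5.56%.

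Among the 20 genes higher with Tbx5, Sema3a was at 2510 against 1940 CPM in wild-type (1.3, 1.1–1.53) and at 1880 against 745 CPM in Usb1-null members (2.52, 2.15–2.97). Scube1, a secreted protein of Hedgehog and BMP signalling, was 1.89-fold (1.25–2.92) and 2.08-fold (1.49–2.94) higher, and Alcam, an adhesion molecule, 1.6-fold and 2.83-fold. Mecom and Ror1 were higher with Tbx5 in each library, Mecom by 1.51-fold and 1.76-fold and Ror1 by 1.41-fold and 1.4-fold. Genes lower with Tbx5 included Eya1, a transcriptional coactivator, at 0.425-fold (0.225–0.768) and 0.517-fold (0.361–0.736), the sulfatase Sulf1 at 0.471-fold and 0.478-fold, the cyclin Ccnd2 at 0.463-fold and 0.649-fold, and the receptor Dcc at 0.432-fold and 0.622-fold. Ebf1 was 2.71-fold higher with Tbx5 in the wild-type and at 0.669-fold in the Usb1-null library, and Ebf3 and Ptprg were split the same way, while Ntn1 was at 0.286-fold and 2.26-fold.

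Pitx1 was found mostly in members without Tbx5. This hindlimb factor gave 1 UMI in members with Tbx5 and 7 in those without in the wild-type library, an interval of the ratio of 0.00309–1.08. In the Usb1-null library it gave 0 and 19 UMIs, with an upper bound of 0.167. Isl1, a factor of the early hindlimb field, gave 1 and 8 UMIs in Usb1-null members (0.0976, 0.0022–0.728) and 1 UMI in wild-type members, in a member with Tbx5.

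In Usb1-null members Hoxc8 gave 2 UMIs with Tbx5 and 16 without (0.0976, 0.0109–0.415), Hoxc6 2 and 15 (0.104, 0.0116–0.448) and Hoxb6 15 and 38 (0.308, 0.158–0.574). In wild-type members Hoxc8 gave 3 and 6 UMIs, Hoxc6 3 and 3 (0.974, 0.13–7.27) and Hoxb6 9 and 13, and all intervals included 1. Some other Hox genes gave more UMIs with Tbx5 than without in wild-type members. These were 6 and 1 for Hoxc5, 8 and 7 for Hoxb9 and 2 and 1 for Hoxd10, and their intervals included 1. In Usb1-null members Hoxc5 (0.3, 0.0838–0.898) and Hoxb9 (0.409, 0.178–0.887) were lower with Tbx5. So were Hoxa7 and the rule genes Hoxa9, Hoxa10 and Hoxd9. Hoxb1 was higher with Tbx5 there, at 12 and 2 UMIs (4.69, 1.04–43.1). These genes were named after their values were seen, and the difference between the libraries was not tested.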

How the data were processed

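Whole embryos had been dissociated and barcoded on the 10x Chromium platform (3′ chemistry). The authors deposited raw UMI counts per gene and barcode for each library, without normalisation. The file headers name Cell Ranger 6.1.2, whereas the labels list Cell Ranger 2.1.1 and mm10. The annotation and the intron setting were not given in the sources used here. In the labels the molecule is nuclear RNA, although the protocol describes single cells in suspension. Coordinates come from GENCODE M21 (GRCm38).

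UMIs of members were summed per library and expressed as CPM. Each log2 ratio divides the Usb1-null by the wild-type level after adding 5 CPM to both, which understates changes of low genes. Intervals are 95% (exact Poisson, Clopper-Pearson, and conditional binomial for ratios) and cover counting error only. Those for ratios were run on simulated counts in which UMIs were independent, so that run cannot speak to dependence within a cell. "Beyond counting" means that the interval excluded a ratio of 1. Lists used genes with at least 20 UMIs, counts past 2-fold those with 50. Named genes were the rule genes, the 10 highest and 10 lowest log2 ratios with at least 100 UMIs (Xist, Tsix and Y-linked genes left out), up to 4 per list, and the 15 leading genes; others, such as Vegfa, Hoxd3 and the marker genes, were named after their values were seen. Members and lists were chosen with earlier results of these data known. The planned edgeR test between Tbx4 and Tbx5 classes was not run, since the Tbx4 class was empty. Doublets were called with Scrublet in Scanpy 1.11.5 at an expected rate of 10%. The mitochondrial filter of the study removed no barcode. Python 3.11.15, SciPy 1.17.1 and edgeR 4.0.16 (for scaling) were used. Values of 1 gene among the limb factors are not reported here.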

Additional observations from a re-analysis of the deposited data

Results flagged for a closer look

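Ctnnd2, Lef1 and Tipin were beyond counting in opposite directions in members and in all other barcodes; the difference between the populations was not tested. Ctnnd2 was at a ratio of 2.92 (Usb1-null over wild-type) in members and 0.865 in others. Lef1 was at 0.797 in members and 1.05 in others, and at 0.818 (0.715–0.937) in Prrx1 barcodes with 1 supporting gene. Tipin, a replication fork protein, was at 1.62 (1.01–2.69) in members and 0.944 (0.898–0.993) in others, and at 0.773 in Prrx1 barcodes with 1 supporting gene. At matched depth Ctnnd2 was at 2.73 (1.69–4.48), Lef1 at 0.754 (0.618–0.919) and Tipin at 1.44 (0.773–2.69).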

How the results depend on the processing

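Alternatives at wild-type depth, without intermediate mesoderm and without the richest member were chosen after seeing the data. No paired analysis was possible because each genotype had 1 library. The test between Tbx4 and Tbx5 classes was not run, with all its alternatives, because no member held Tbx4 alone. The share of members changed with the rule and the depth. Its ratio reversed to 0.477 after thinning to 1000 UMIs (shares 0.422% and 0.202%) and to 0.757 with the Usb1-null library thinned to wild-type depth (0.615%), and moved to 1.06 with at least 1000 genes (wild-type share 1.34%). The shares were 0.204% and 0.284% with 3 supporting genes, 2.74% and 3.79% with 1, and 1.85% in the Usb1-null library with no barcode dropped. The share of members with Tbx5 moved to 24.3% and 21.7% after thinning and to 83.9% and 73% with 3 supporting genes.

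Genes higher and lower past 2-fold numbered 11 and 16 of 477 genes with members chosen after thinning, 1055 and 709 of 16750 with no minimum of UMIs, 8 and 9 of 987 with a minimum of 200, 37 and 26 of 968 with 3 supporting genes, and 28 and 37 of 2439 at wild-type depth, against 86 and 38 of 4430. With members chosen after thinning, list medians were -0.35 for limb transcription factors, -0.47 for Hedgehog, -1.02 for muscle precursor guidance, -0.29 for matrix, 0.20 for hypoxia and 0.15 for mitosis. With 3 supporting genes they were -0.17 for FGF, 0.42 for matrix, 0.14 for hypoxia and 0.20 for U6 factors. With a list minimum of 100 UMIs they were 0.20 for S phase and 0.33 for U6 factors. At wild-type depth they were 0.29 for Hox genes and 0.16 for p53 targets, and without members that held intermediate mesoderm UMIs -0.05 for BMP; the cause of these shifts was not tested. Among single genes beyond counting, log2 ratios reversed for Erbb4 (-0.96), Fgf10 (0.07), Lef1 (0.55), Mdm2 (-0.04) and Manf (0.08) after thinning. With 3 supporting genes they reversed for Smad7 (0.11) and G2e3 (-0.03). Tbx5, within counting at full depth (0.795, 0.598–1.06), was at a ratio of 1.1 (0.773–1.57) at wild-type depth.

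Adding 1 CPM, TMM scaling, removing doublets and equal Tbx5 shares moved no count by 1.5 times and no list median by more than its counting error, though medians near 0 changed sign: without doublets the Hox median was 0.05, Hedgehog -0.08 and muscle precursor guidance -0.32, and with equal Tbx5 shares the Hox median was 0.02. Without the member richest in the gene in each library, the intervals of Gli3 (0.739–1.02), Hoxd4 (0.452–1.02), Smad7 (0.511–1.03) and Manf (0.629–1.01) included 1. Slc2a3, Hapln1, Ctnnd2, Bnip3, Lmx1b and Hoxd8 kept their direction under all 9 alternatives run on them. Sums over members were small, with 273301 wild-type UMIs in 123 members.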

Other observations

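Genes of the cell cycle had medians near 0 in members. Counts here are to be read against 5.91% higher and 6.57% lower over all genes. Of 32 S phase genes 1 was higher (Tipin) and 1 lower (Mcm3, a helicase subunit, 0.542, 0.31–0.958) beyond counting, with a median log2 ratio of 0.00. Of 50 mitotic genes 5 were higher and 2 lower, with a median of -0.05. The kinesin Kif20b was at 218 against 121 CPM (1.8, 1.23–2.72) and the checkpoint kinase Bub1 at 120 against 69.5 CPM (1.73, 1.03–3.03), while Cdc20, the activator of anaphase, was at 28.8 against 76.8 CPM (0.375, 0.188–0.739). At matched depth Cdc20 was at 0.48 (0.173–1.17) and Mcm3 at 0.461 (0.18–1.05), on 7 and 8 Usb1-null UMIs, and both intervals included 1. Of 13 p53 targets only Mdm2, the ligase that degrades p53, was beyond counting, at 12 UMIs in wild-type and 56 in Usb1-null members (2.04, 1.08–4.18). At matched depth Mdm2 was at 1.8, and its interval included 1 (0.787–4.22).

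In the list for the unfolded protein response 0 of 16 counted genes were higher and 4 lower (5.91% and 6.57% over all genes), with a median of -0.24 (-0.11 in others). The 4 lower genes act in the folding of proteins in the endoplasmic reticulum. Calr was at 597 against 1170 CPM (0.51, 0.438–0.594; 0.654 in others), Canx at 0.773 (0.655–0.914; 1.0), Manf at 0.782 and Hspa5 at 0.815. At matched depth Manf was at 0.78 (0.569–1.06) and Hspa5 at 0.935 (0.785–1.11), and both intervals included 1. Of 22 factors of U6 and the tri-snRNP, Snrnp200, a helicase of the spliceosome, was higher (1.92, 1.04–3.82; 1.44, 0.616–3.37 at matched depth) and none lower, with a median of -0.14. Tut1, which adds uridines to U6, gave 11 and 14 UMIs (0.557, 0.235–1.36). None of 4 dissociation stress genes was beyond counting. The liver list gave 9 and 23 UMIs in members.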
